A study of Mus musculus with 12 samples.

Results

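Mouse colonoids given IL-22, with or without IL-1b, had less RNA of 3 of the 4 measurable sialyltransferases that attach sialic acid in alpha-2,6 linkage. RNA of several enzymes that lengthen glycan chains rose in both cases. Of 12 tested genes that start chains, 3 rose and 4 fell with both cytokines, and 3 rose and 1 fell with IL-22 alone. Of 4 tested branching genes 3 rose with both cytokines, and 1 (Gcnt2) with IL-22 alone. Of all tested genes 13.7% rose and 13.3% fell with both cytokines, and 11.9% rose and 10.6% fell with IL-22 alone. The calls of Gcnt1 and Gcnt3, and that of the alpha-2,6 gene St6galnac2 with IL-22 alone, were lost when single libraries were left out. The genes examined are the glycosyltransferases that build mucin-type O-glycans, extend glycan chains and cap them with sialic acid. They are the 71 of 35869 gene symbols whose names begin with Galnt, C1galt1, Gcnt, B3gnt, B3galt, B4galt, B4galnt, St3gal, St6gal (which takes in St6galnac) or St8sia. Fucosyltransferases are not among them. All 71 were placed in the gene annotation, where St8sia3os is an antisense RNA and not an enzyme gene.

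Colonoids are closed epithelial cultures raised from colonic crypts inside Matrigel. Those used here came from C57BL/6 mice and grew with EGF at 50 ng/mL and 20% conditioned medium from L-WRN cells, a source of Wnt, R-spondin and noggin proteins. Cultures received IL-1b at 100 ng/mL together with IL-22 at 1 ng/mL, IL-22 alone at 1 ng/mL, IL-1b alone at 100 ng/mL, or no cytokine, with 12 h of exposure and 3 libraries of polyadenylated RNA in each group. The labels give neither the age of the mice nor whether the libraries of a group came from separate animals or cultures. The p-values therefore measure no more than the variation among these 12 libraries, and that may be technical.

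Mucin-type O-glycans begin in the Golgi, where polypeptide GalNAc transferases attach N-acetylgalactosamine to serine or threonine. Core enzymes then add galactose or N-acetylglucosamine, branching enzymes open new arms, and alternating galactose and N-acetylglucosamine transferases lengthen them. Sialyltransferases cap the ends with sialic acid in alpha-2,3, alpha-2,6 or alpha-2,8 linkage, and the families also build N-glycans and glycolipids. In the colon such glycans coat the mucins of goblet cells and the surface of colonocytes. IL-22, released by lymphoid cells, signals in epithelium mainly by way of STAT3, and IL-1b binds the IL-1 receptor and activates NF-kB. The series concerns signalling of the IL-1 receptor inside epithelial cells.

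Library totals lay between 4703902 and 5804033 counts. Levels below are CPM, counts scaled to a common library size with TMM factors, given with SD and n = 3, and genes are compared with each other per kb of exon. A log2 fold change carries its standard error, and rose or fell is written of a gene when edgeR's quasi-likelihood test gave an adjusted p (Benjamini-Hochberg, over all 13987 genes tested) under 0.05. All 7 epithelial markers listed (Epcam, Cdh1, Krt8, Krt18, Krt20, Vil1, Cdx2) were detected, with summed levels of 2420 to 2510 CPM with both cytokines, 2300 to 2630 CPM with IL-22, 2060 to 2240 CPM with IL-1b and 2190 to 2320 CPM in unstimulated libraries. Among leukocyte markers, Tyrobp had no count in any library, while replicate 1 with IL-1b stood apart with 104 counts of Ptprc, 130 of Laptm5 and 19 of Cd3e. Its summed leukocyte level was 53.8 CPM, against 17 and 18.8 CPM in the other IL-1b libraries, 15.1 to 21.5 CPM with both cytokines, 12.3 to 23.9 CPM with IL-22 and 6.73 to 8.37 CPM in unstimulated libraries. Of the 4 tested leukocyte markers only Cd68, of macrophages, changed against unstimulated, at 10.1 ± 1.15 CPM with both cytokines, 11.5 ± 3.61 with IL-22, 3.76 ± 0.237 with IL-1b and 3.37 ± 1.05 in unstimulated libraries (log2 fold change 1.59 ± 0.27 and 1.76 ± 0.27, edgeR adjusted p = 0.000637 and 0.000362). The part of these markers in the results below was not tested. Summed markers of fibroblasts and smooth muscle stayed at or below 4.23 CPM in every library.

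Of the 71 genes, 51 passed the filter on low counts and were tested. The other 20 had at most 46 counts over all 12 libraries, and 6 of them (B3galt1, Galnt15, Galntl5, St6galnac3, St8sia2 and St8sia3os) had no count. A gene expressed only under a cytokine could pass the filter through that group alone, so counts of tested genes do not describe all 71. The tested members had a median level of 83.8 CPM over the 12 libraries, against 43.9 CPM for all tested genes. In unstimulated colonoids B4galnt2, which makes the Sda blood group structure, had 253 ± 13.6 CPM per kb, and the sialyltransferase gene St3gal4 followed with 111 ± 3.94 CPM per kb. B3galt5, which starts type 1 chains, had 85.9 ± 2.88 CPM per kb, and B3gnt3, which extends core 1 arms, had 78.2 ± 2.95 CPM per kb. Each of these 4 was separated from the next by more than the spread of its libraries, whereas Gcnt3, St6galnac6 and Galnt6, at 58.2 ± 5.38, 57.4 ± 1.78 and 53.95 ± 4.40 CPM per kb, were not. At the other end of the tested members, B3gnt6, the core 3 synthase gene, had 0.9 ± 0.0689 CPM per kb and St8sia1 0.815 ± 0.113 CPM per kb. St3gal2 was lowest of the tested members with 0.252 ± 0.12 CPM per kb.

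**Figure D1:**
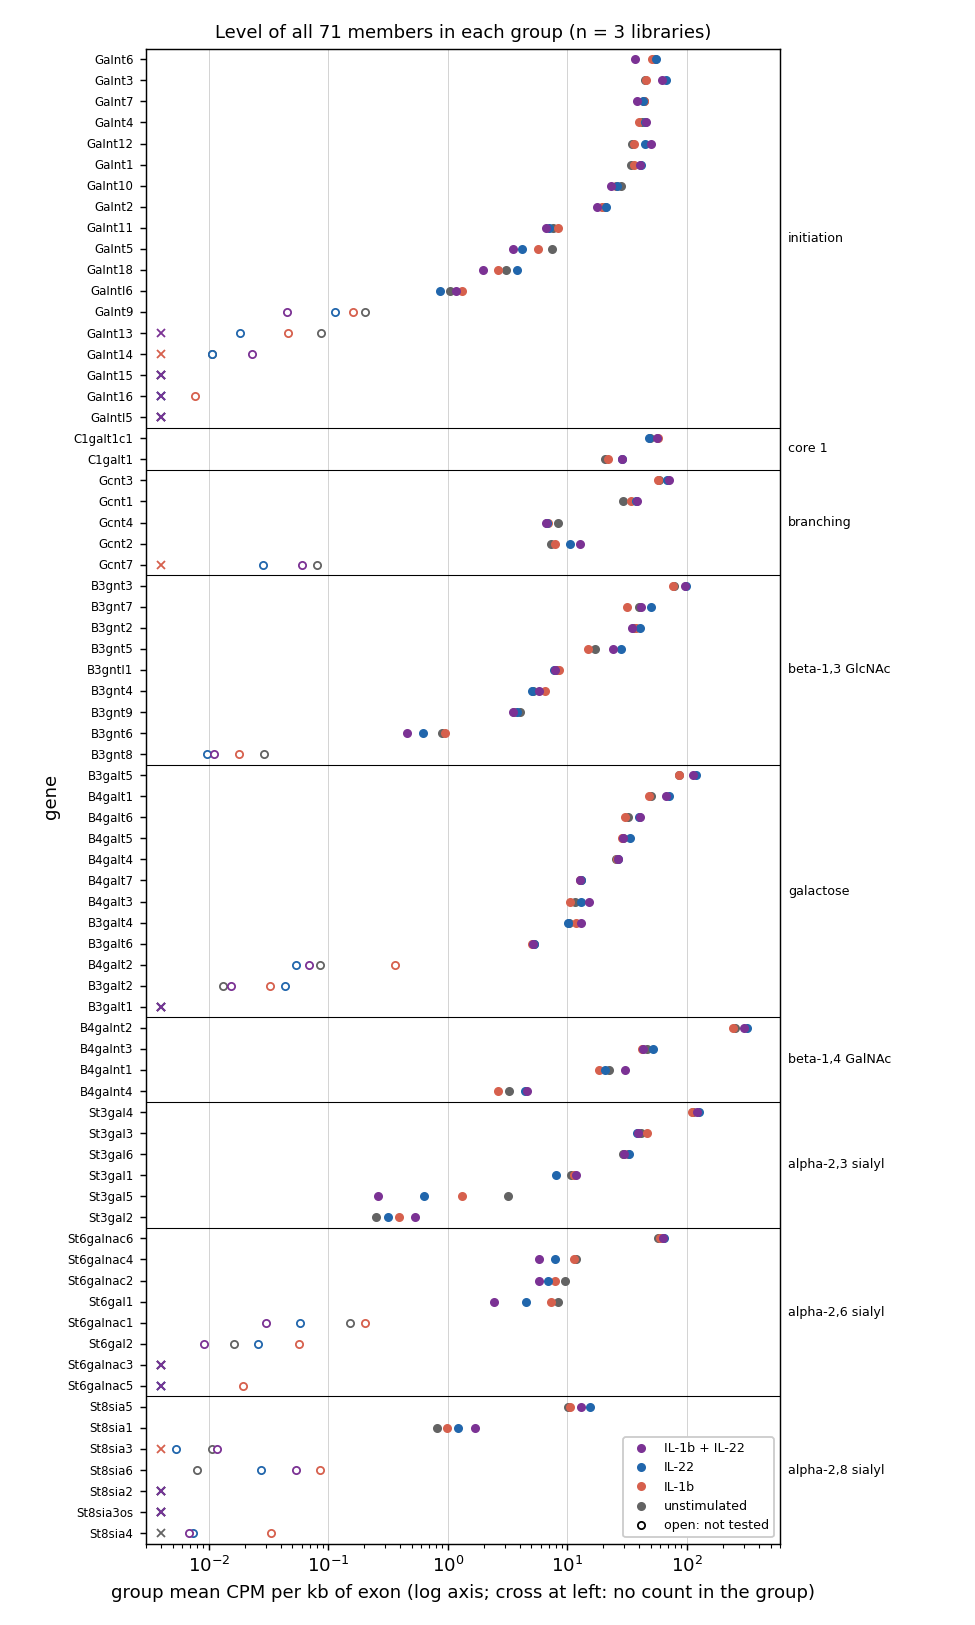
Group mean level in CPM per kb of exon (log axis) for all 71 genes, ordered by role and then by level in unstimulated colonoids; filled points are genes that were tested and open points are genes that were not. B4galnt2, St3gal4, B3galt5 and B3gnt3 lead, and the untested genes lie below 1 CPM per kb in each group.

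With both cytokines, 23 of the 51 tested members changed against unstimulated colonoids, 15 upward and 8 downward, while 27% of all tested genes were called, 13.7% upward and 13.3% downward. With IL-22 alone 19 changed, 14 upward and 5 downward, against 22.5% of all genes, 11.9% upward and 10.6% downward. Both shares for the members (45.1% and 37.3%) lay above those for all genes, but members were also more abundant than most genes. Among genes with a mean of 50 CPM or more, 18 of 34 members were called with both cytokines and 14 of 34 with IL-22, against 31.7% and 27.4% of the 6504 genes at that level. The median log2 fold change of the 51 members was 0.12 with both cytokines and 0.15 with IL-22, against 0.0026 and -0.00036 over all tested genes. These medians are not matched for level. In genes under 0.02 counts per exon base the median was -0.19 with both cytokines and -0.17 with IL-22. At 0.4 or more it was 0.11 and 0.13. The part of this trend in the medians of the members was not tested. The 2 comparisons share their unstimulated libraries. Among the members, 12 genes were called upward in both of them and 5 downward in both. The change was larger than 2-fold for 5 of the 23 called members with both cytokines and for 1 of the 19 with IL-22, against 829 of 3783 and 583 of 3144 called genes over the whole table.

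IL-1b alone changed no member by the edgeR test, where 0.0715% of all genes were called. At an unadjusted p under 0.05 there were 5 of the 51 members (B3gnt7, Galnt5, B3gnt4, St3gal5 and C1galt1c1), with a like share of all tested genes (9.57%). DESeq2 called none of the members. IL-1b on top of IL-22 likewise changed no member by edgeR, where 0.0786% of all genes were called (0.0643% upward and 0.0143% downward). Here 17 of the 51 members had an unadjusted p under 0.05, against 10.3% of all tested genes. DESeq2 called 2 members, Galnt6 and St6gal1, and 87 genes over the whole table. Against IL-1b alone, both cytokines changed 24 members, 16 upward and 8 downward, with 26.3% of all genes called (13.3% upward and 13% downward). The interaction of the 2 cytokines was called for 0 members and 0% of all genes by edgeR. At an unadjusted p under 0.05 were 6 of the 51 members and 5.04% of all tested genes, and DESeq2 called no member.

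**Figure D2:**
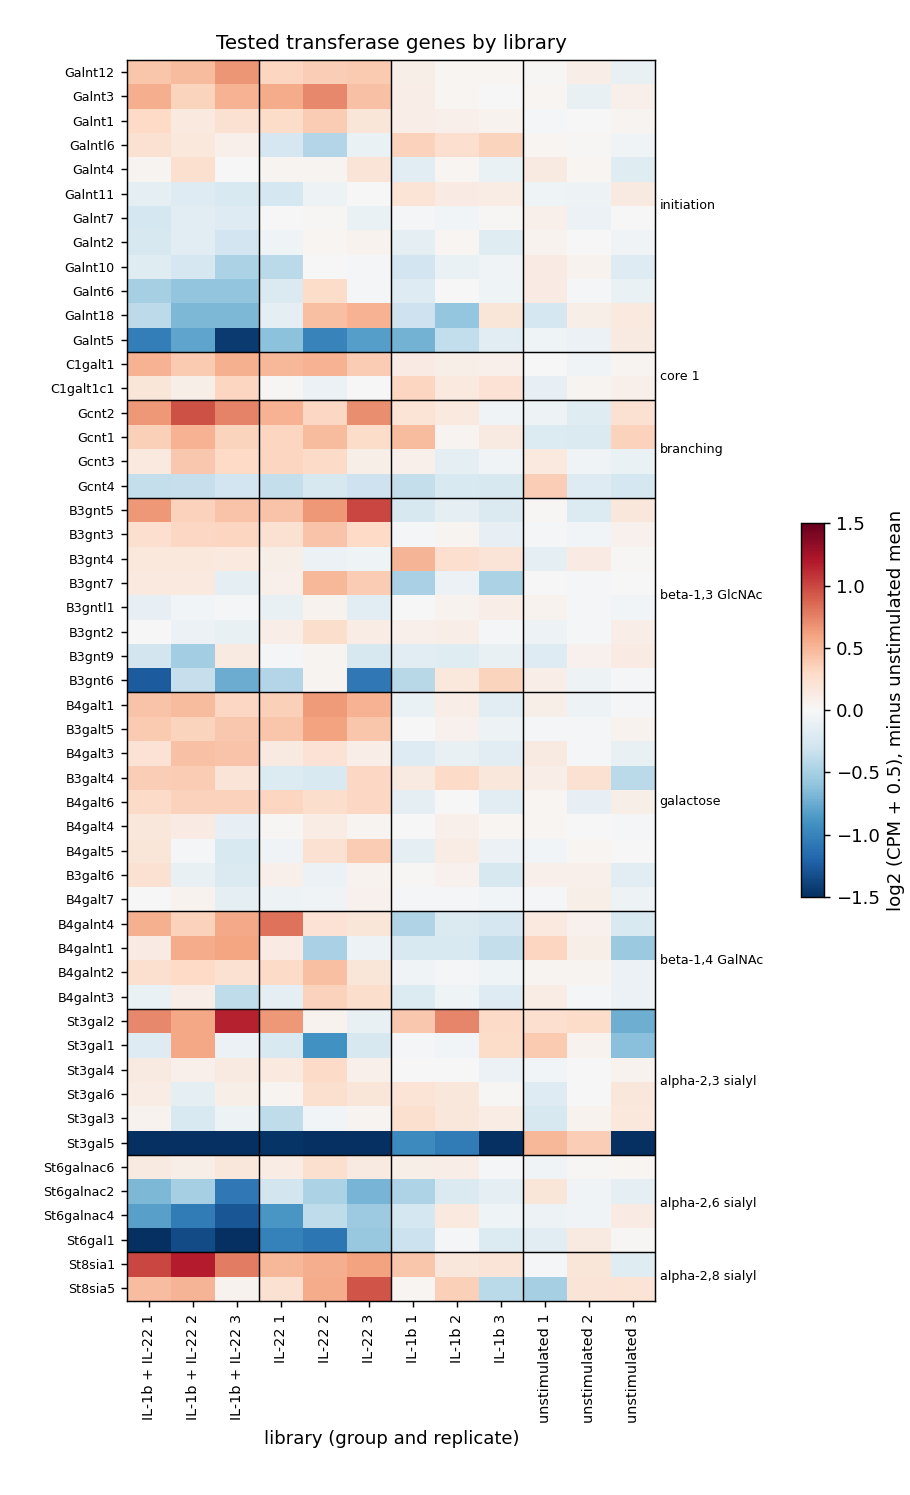
Each row is 1 of the 51 tested genes, grouped by role, and each column 1 library; colour gives log2(CPM + 0.5) minus the same for the unstimulated mean, and is full beyond 1.5 in either direction. The 3 libraries with both cytokines and the 3 with IL-22 share most of their colours in the alpha-2,6 sialyltransferase, C1galt1 and galactose rows. The IL-1b libraries stay pale in most rows but not for St3gal5.

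The polypeptide GalNAc transferases of initiation had calls in both directions. Of their 18 genes 12 were tested, and 3 rose and 4 fell with both cytokines, while 3 rose and 1 fell with IL-22. For this and the families below, the shares over all tested genes were 13.7% upward and 13.3% downward with both cytokines. With IL-22 they were 11.9% upward and 10.6% downward. The families are small, and whether any differs from those shares was not tested. Galnt3, a polypeptide GalNAc transferase known for its action on the hormone FGF23, had 283, 245 and 279.8 CPM with both cytokines, 286, 321 and 262 CPM with IL-22, 208, 198 and 195 CPM with IL-1b and 198, 179 and 204 CPM in unstimulated libraries. All 6 libraries with IL-22 lay above all 6 without it. Its log2 fold change against unstimulated was 0.47 ± 0.078 with both cytokines (edgeR adjusted p = 0.000555) and 0.58 ± 0.078 with IL-22 (edgeR adjusted p = 0.000152). Galnt12, whose human counterpart carries inherited variants in some colorectal cancers, had 107, 111 and 126 CPM with both cytokines, 100.1, 103 and 104 CPM with IL-22, 85.1, 81.7 and 81.3 CPM with IL-1b and 80.5, 85.3 and 73.6 CPM in unstimulated libraries. It rose by 0.52 ± 0.072 with both cytokines and 0.36 ± 0.073 with IL-22 on the log2 scale (edgeR adjusted p = 0.000132 and 0.00282), again with no overlap between libraries with and without IL-22. Galnt1, a broadly expressed initiating enzyme gene, had 234, 209 and 222 CPM with both cytokines, 229.6, 246 and 214 CPM with IL-22, 203, 199.8 and 196 CPM with IL-1b and 186, 188 and 194 CPM in unstimulated libraries. All libraries of both IL-22 groups lay above the unstimulated ones. It rose by 0.23 ± 0.058 with both cytokines and 0.28 ± 0.058 with IL-22 (edgeR adjusted p = 0.0102 and 0.00356), the call with both being lost without replicate 1 of both cytokines (0.0536) and after subtracting the trend of fold change on counts per exon base (0.0792). With the trend subtracted the log2 fold change with IL-22 was 0.21. Over the 12 libraries the variance of its raw counts was 2.51 times the mean, where the library totals alone would give 5.37.

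Galnt5 moved the other way. This initiating enzyme gene had 15.9, 19.01 and 12.01 CPM with both cytokines, 21.5, 16.4 and 18.5 CPM with IL-22, 20.2, 25.6 and 29.6 CPM with IL-1b and 31.9, 31.3 and 36.6 CPM in unstimulated libraries. Every cytokine-treated library was below every unstimulated one, and log2 fold changes were -1.08 ± 0.17 with both cytokines (edgeR adjusted p = 0.000396), -0.82 ± 0.17 with IL-22 (edgeR adjusted p = 0.00313) and -0.40 ± 0.16 with IL-1b, the last not past the threshold (edgeR adjusted p = 0.476, unadjusted p = 0.0253). In bulk RNA, fewer cells of a type and less RNA per cell cannot be told apart for this gene or any below.

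Galnt6 fell with both cytokines but was not called with IL-22 alone. This close relative of Galnt3 had 147, 139 and 139 CPM with both cytokines, against 180, 252 and 204 CPM with IL-22, 183, 209.8 and 199 CPM with IL-1b and 228, 205 and 194 CPM in unstimulated libraries. The 3 libraries with both cytokines were below all 9 others, and IL-22 alone was not distinguishable from unstimulated, with a difference of 0.021 ± 0.099 and a 95% interval of -0.17 to 0.21. Against unstimulated Galnt6 fell by 0.56 on the log2 scale (edgeR adjusted p = 0.00106). Against IL-22 alone the log2 fold change was -0.58 ± 0.10, which missed the edgeR threshold (adjusted p = 0.0565, unadjusted p = 5.25e-05), and it was called by DESeq2 (adjusted p = 0.000145), with total counts as the only scaling (0.0459) and without IL-22 replicate 1 (0.0119) or unstimulated replicate 3 (0.0483). Its interaction was -0.50 ± 0.14 (edgeR adjusted p = 0.924, unadjusted p = 0.00328). In the annotation, 11.4% of its exon bases are shared with Galnt6os on the opposite strand, and the counting strand is not given in the sources used here.

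Smaller falls with both cytokines were found for Galnt7, which prefers substrates that already carry GalNAc (-0.20 ± 0.054, edgeR adjusted p = 0.0123), and for Galnt2 (-0.22 ± 0.069, edgeR adjusted p = 0.0274). Galnt7 had 192, 205 and 201 CPM with both cytokines, 230, 233 and 215 CPM with IL-22, 228, 224 and 232 CPM with IL-1b and 243, 216 and 229.7 CPM in unstimulated libraries. Galnt2 had 75.5, 79.97 and 73.2 CPM with both cytokines, 85.5, 91.04 and 92.03 CPM with IL-22, 80.1, 90.7 and 78.7 CPM with IL-1b and 92.5, 88.8 and 85.9 CPM in unstimulated libraries. In both, every library with both cytokines was below every unstimulated one, and the IL-22 and IL-1b libraries overlapped the unstimulated ones. The Galnt7 call was lost without unstimulated replicate 1 or replicate 1 of both cytokines (edgeR adjusted p = 0.0569 and 0.0573), and the Galnt2 call without unstimulated replicate 1 or 2 or replicate 1 or 3 of both cytokines (0.0678 to 0.0955). Galnt2 shares 90% of its exon bases with Gm20388 on the same strand, so its counts are uncertain, and DESeq2 did not call it (adjusted p = 0.0603). Galnt11 had 46.8, 44.9 and 43.8 CPM with both cytokines, 42.7, 48.95 and 51.7 CPM with IL-22, 59.2, 56.2 and 55.5 CPM with IL-1b and 49, 48.9 and 56.3 CPM in unstimulated libraries. Its libraries with both cytokines lay below all with IL-1b, the one comparison where it was called (-0.33 ± 0.085, edgeR adjusted p = 0.0103); no test compared that with its difference from unstimulated (-0.19 ± 0.086, adjusted p = 0.125). Galnt4, Galnt10, Galnt18 and Galntl6 passed no threshold against unstimulated. Summed over the family, the level was 325 ± 2.31 CPM per kb with both cytokines, 358 ± 21 with IL-22, 315 ± 6.55 with IL-1b and 322 ± 13 in unstimulated libraries.

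The enzyme that makes core 1 rose and its chaperone did not pass the test. C1galt1, the core 1 synthase gene, had 179, 164 and 180.4 CPM with both cytokines, 176, 179 and 162 CPM with IL-22, 136, 133 and 132 CPM with IL-1b and 126, 119.8 and 129 CPM in unstimulated libraries. Libraries with and without IL-22 did not overlap. Its log2 fold change was 0.48 ± 0.057 with both cytokines (edgeR adjusted p = 3.67e-05) and 0.47 ± 0.057 with IL-22 (edgeR adjusted p = 6.57e-05), a 1.40-fold and a 1.38-fold difference. C1galt1c1, which encodes the chaperone that C1galt1 needs for folding, averaged 81.2 ± 6.59 CPM with both cytokines, 69.4 ± 2.58 CPM with IL-22, 82.8 ± 4.996 CPM with IL-1b and 70.5 ± 5.11 CPM in unstimulated libraries. Both groups with IL-1b had the higher means, and the log2 fold change with IL-1b alone was 0.23 ± 0.077 (unadjusted p = 0.00924, edgeR adjusted p = 0.398). The alternative core 3 enzyme, B3gnt6, had 3 to 17 counts a library, and 1.08 ± 0.481 CPM with both cytokines, 1.47 ± 0.731 CPM with IL-22, 2.25 ± 0.7 CPM with IL-1b and 2.13 ± 0.163 CPM in unstimulated libraries. Its log2 fold change of -0.96 ± 0.43 with both cytokines did not pass the edgeR test (adjusted p = 0.115).

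Among branching enzymes 3 of 4 tested genes rose with both cytokines and 1 with IL-22. Gcnt2, which makes the branched I blood group structure, had 81.3, 100.4 and 86.5 CPM with both cytokines, 73.9, 64.02 and 83.9 CPM with IL-22, 59.4, 57.2 and 49.7 CPM with IL-1b and 48.8, 45.3 and 60.5 CPM in unstimulated libraries. Every library with IL-22 was above every library without it. The log2 fold change was 0.80 ± 0.12 with both cytokines and 0.53 ± 0.12 with IL-22 (edgeR adjusted p = 0.000308 and 0.0077). Gcnt3, the mucin-type enzyme of core 2 and core 4, had 277, 333 and 309 CPM with both cytokines, 313, 306 and 266 CPM with IL-22, 264, 229 and 242 CPM with IL-1b and 277, 241 and 234 CPM in unstimulated libraries. It rose with both cytokines (0.29 ± 0.086, edgeR adjusted p = 0.0224). The groups overlapped, and the call was lost without unstimulated replicate 2 or 3 (edgeR adjusted p = 0.0846 and 0.0761) or replicate 2 or 3 of both cytokines (0.0839 and 0.0641), and after subtracting the trend on counts per exon base (0.131). Gcnt1, the core 2 enzyme of leukocytes and other cells, had 214, 239.7 and 211 CPM with both cytokines, 208, 233 and 202 CPM with IL-22, 232, 172 and 184 CPM with IL-1b and 145, 143 and 212 CPM in unstimulated libraries. It rose with both cytokines (0.41 ± 0.14, edgeR adjusted p = 0.0393). Here too 1 unstimulated library overlapped the treated ones, and the call was lost without unstimulated replicate 1 or 2 (edgeR adjusted p = 0.152 and 0.157) or any 1 library of both cytokines (0.0628 to 0.108), with total counts as the only scaling (0.0533) and after subtracting the trend (0.0879). Gcnt4 averaged 33.5 ± 0.892 CPM with both cytokines and 42.4 ± 11.04 CPM in unstimulated libraries, where replicate 1 was high at 55.1 CPM, and did not pass the test.

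Among the N-acetylglucosamine transferases B3gnt5 and B3gnt3 rose. B3gnt5, which makes the glycolipid that starts the lacto-series, had 140, 113 and 119.5 CPM with both cytokines, 120.2, 139 and 178 CPM with IL-22, 75.2, 80.7 and 76.7 CPM with IL-1b and 89.6, 77.1 and 99.95 CPM in unstimulated libraries. The 2 IL-22 groups overlapped each other and neither overlapped the groups without IL-22. Log2 fold changes were 0.48 ± 0.13 with both cytokines (edgeR adjusted p = 0.0138) and 0.72 ± 0.13 with IL-22 (edgeR adjusted p = 0.0013). Leaving out unstimulated replicate 2 or replicate 1 of both cytokines ended the call with both (edgeR adjusted p = 0.0682 and 0.065). B3gnt3, which lengthens core 1 arms, had 285, 296 and 298 CPM with both cytokines, 279.8, 321 and 294 CPM with IL-22, 233, 245 and 219 CPM with IL-1b and 235, 232 and 249 CPM in unstimulated libraries. Libraries with IL-22 were all above those without, with a log2 fold change of 0.30 ± 0.059 with both and 0.32 ± 0.059 with IL-22 (edgeR adjusted p = 0.0022 and 0.00169). After subtracting the trend on counts per exon base these were 0.18 and 0.20, and both stayed called. Over the 12 libraries the variance of its raw counts was 6.27 times the mean, where the library totals alone would give 6.52. B3gnt7, another chain-lengthening enzyme gene, had 182, 181 and 148 CPM with both cytokines, 173, 230.4 and 214 CPM with IL-22, 117, 154 and 118 CPM with IL-1b and 164, 162 and 165 CPM in unstimulated libraries. It was called only for both cytokines against IL-1b alone (0.40 ± 0.12, edgeR adjusted p = 0.022), where the groups overlapped and leaving out any of 4 single libraries (IL-1b replicate 1 or 3, both cytokines replicate 1 or 2) ended the call (edgeR adjusted p = 0.0725 to 0.103). B3gnt7 shares 12.6% of its exon bases with Gm28626 on the opposite strand. The broadly acting B3gnt2 shares 58.6% of its exon bases with Gm28048 and B3gnt4 93.2% with Diablo, and neither was called.

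Of 9 tested galactosyltransferases 4 rose with both cytokines, 3 of them with IL-22 alone too, and none fell. B3galt5 had 692, 666 and 702 CPM with both cytokines, 705, 804 and 704 CPM with IL-22, 533, 554 and 501 CPM with IL-1b and 519, 519 and 549.6 CPM in unstimulated libraries. No library without IL-22 reached the level of any library with it. The log2 fold change was 0.38 ± 0.059 with both cytokines and 0.48 ± 0.059 with IL-22 (edgeR adjusted p = 0.00035 and 6.57e-05), and with IL-1b it was 0.00013 with a 95% interval of -0.12 to 0.12. After subtracting the trend on counts per exon base the first 2 were 0.26 and 0.36, and both stayed called. B4galt1, the main enzyme of type 2 chains, had 286, 293 and 263 CPM with both cytokines, 270.3, 329 and 305 CPM with IL-22, 198, 226 and 189 CPM with IL-1b and 225, 201 and 208 CPM in unstimulated libraries. Its log2 fold change was 0.41 ± 0.081 with both cytokines and 0.51 ± 0.081 with IL-22 (edgeR adjusted p = 0.00203 and 0.000524), and the groups with and without IL-22 did not overlap. B4galt6, a lactosylceramide synthase gene, had 228, 239.5 and 239 CPM with both cytokines, 234, 225 and 232 CPM with IL-22, 171, 188 and 167 CPM with IL-1b and 192, 172 and 199 CPM in unstimulated libraries. All libraries of both IL-22 groups lay above all unstimulated ones, and it rose by 0.33 ± 0.061 with both cytokines and 0.30 ± 0.061 with IL-22 (edgeR adjusted p = 0.0013 and 0.00328), whereas the other lactosylceramide synthase gene, B4galt5, had -0.013 ± 0.11 and 0.20 ± 0.11, with 95% intervals of -0.23 to 0.21 and -0.018 to 0.42. B4galt3, another galactosyltransferase of type 2 chains, had 74.2, 86.8 and 85.8 CPM with both cytokines, 70.2, 74.2 and 68.5 CPM with IL-22, 55.7, 59.1 and 57.2 CPM with IL-1b and 69.7, 62.6 and 58.8 CPM in unstimulated libraries. It rose with both cytokines (0.37 ± 0.079, edgeR adjusted p = 0.00346), and with IL-22 alone had 0.15 ± 0.08 (adjusted p = 0.193). Its interaction of 0.37 ± 0.11 was not past the threshold (unadjusted p = 0.00584, edgeR adjusted p = 0.924), and 14.5% of its exon bases are shared with Ppox on the opposite strand. The linker enzymes of proteoglycans, B4galt7 and B3galt6, had log2 fold changes of -0.024 ± 0.083 and -0.02 ± 0.15 with both cytokines.

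**Figure D3:**
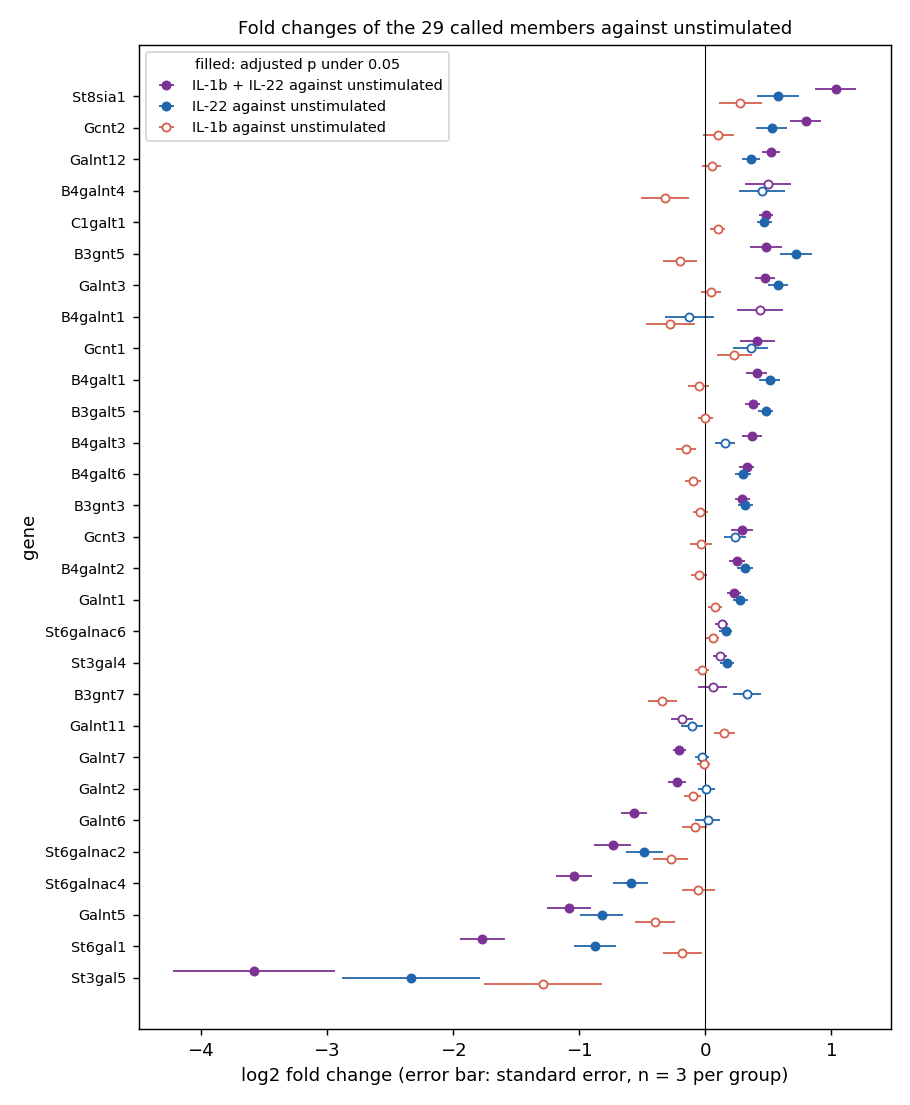
Log2 fold change against unstimulated for the 29 genes called in any comparison, with standard errors (n = 3 per group); filled points are called at an adjusted p under 0.05. Purple and blue points, for both cytokines and IL-22 alone, mostly lie on the same side of 0, while the IL-1b points are all open; St3gal5, St6gal1, Galnt5 and St6galnac4 reach furthest to the left and St8sia1 and Gcnt2 furthest to the right.

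The start-site sequences of the members were searched for TTCNNNGAA, the spacing bound by STAT proteins, which reads the same on both strands. RefSeq windows of 300 bases (250 before to 50 after each start, build GRCm38.p6) were matched by symbol for 52 members. The letters occur in 8.3% of 32851 windows over the genome and in 9.55% of 27025 genes. Among members that rose in any comparison 3 of 15 matched genes held them, and among those that fell 0 of 7. The windows of B3galt5, B4galt1 and Gcnt2 are the 3 with a match, and 120 upstream bases around each match are shown so that it can be seen in place, from chr16:96235681-96235800 (plus strand), chr4:40854019-40854138 (minus strand) and chr13:40886508-40886627 (plus strand), with the matching letters in capitals.
B3galt5: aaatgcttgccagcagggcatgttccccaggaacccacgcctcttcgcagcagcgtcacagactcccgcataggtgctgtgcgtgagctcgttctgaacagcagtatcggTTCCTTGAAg
B4galt1: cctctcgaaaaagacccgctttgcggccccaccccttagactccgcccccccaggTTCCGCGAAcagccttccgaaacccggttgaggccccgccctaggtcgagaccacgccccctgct
Gcnt2: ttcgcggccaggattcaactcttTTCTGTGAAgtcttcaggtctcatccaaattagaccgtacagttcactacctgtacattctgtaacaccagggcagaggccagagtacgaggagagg
The first matching base lies 10, 99 and 227 bases before the start. A match is only a description of these letters, and 2 members that were not called, Gcnt4 and Galntl6, have one as well.

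The GalNAc transferases that cap chains include the most abundant member per kb, B4galnt2. It shares 15.3% of its exon bases with Gm11534 on the opposite strand. B4galnt2 had 513, 538 and 511 CPM with both cytokines, 532, 598 and 496 CPM with IL-22, 419, 431 and 416 CPM with IL-1b and 449.6, 449.9 and 409 CPM in unstimulated libraries. All libraries of both IL-22 groups lay above the unstimulated ones, and its log2 fold change was 0.26 ± 0.063 with both cytokines and 0.31 ± 0.063 with IL-22 (edgeR adjusted p = 0.0084 and 0.00295). Fold changes with IL-22 trended upward with counts per exon base, and B4galnt2 had the most among the members (1.44 counts per base). After that trend was subtracted the log2 fold changes were 0.098 and 0.14 and neither was called (edgeR adjusted p = 0.294 and 0.146). B4galnt1, the GM2 and GD2 ganglioside synthase gene, and B4galnt4, which makes terminal GalNAc on lactosamine-like chains, were called only for both cytokines against IL-1b alone, at 0.71 ± 0.19 and 0.82 ± 0.19 (edgeR adjusted p = 0.0131 and 0.0053). B4galnt1 had 84.1, 114 and 116 CPM with both cytokines, 84.2, 55.1 and 72.99 CPM with IL-22, 65.8, 66.03 and 60.04 CPM with IL-1b and 96.8, 82.4 and 52.5 CPM in unstimulated libraries, so its unstimulated libraries overlapped every other group. B4galnt4 had 18.4, 16.1 and 18.9 CPM with both cytokines, 22.5, 14.6 and 14.3 CPM with IL-22, 9.01, 10.7 and 10.5 CPM with IL-1b and 13.9, 13.1 and 10.6 CPM in unstimulated libraries. Of the exon bases of B4galnt1, 20.7% are shared with Slc26a10 on the opposite strand, and without IL-1b replicate 3 or replicate 3 of both cytokines its call was lost (edgeR adjusted p = 0.0563 and 0.0533).

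Among the alpha-2,6 sialyltransferases 3 of the 4 tested genes fell with both cytokines, and the same 3 fell with IL-22. For these sialyltransferases and those below, 13.7% of all tested genes rose and 13.3% fell with both cytokines. With IL-22, 11.9% rose and 10.6% fell. St6gal1, which caps the lactosamine arms of N-glycans, had 9.89, 15.9 and 10.1 CPM with both cytokines, 20.03, 19.1 and 27.4 CPM with IL-22, 32.7, 40.1 and 35.4 CPM with IL-1b and 36.4, 44.7 and 41.5 CPM in unstimulated libraries. The groups were ordered without overlap: all libraries with both cytokines were below all with IL-22, and those were below all libraries without IL-22. Against unstimulated the log2 fold change was -1.77 ± 0.18 with both cytokines (3.40-fold lower, edgeR adjusted p = 1.07e-05) and -0.88 ± 0.17 with IL-22 (1.84-fold lower, edgeR adjusted p = 0.0019), and with IL-1b alone it was -0.18 ± 0.16 (adjusted p = 0.708). The step between both cytokines and IL-22 alone was -0.89 ± 0.19 (unadjusted p = 0.000405), not past the edgeR threshold after adjustment (adjusted p = 0.105) and called by DESeq2 (adjusted p = 0.00802). The interaction was -0.71 ± 0.25 (unadjusted p = 0.0127, edgeR adjusted p = 0.924).

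St6galnac4, which adds sialic acid to an O-glycan that already has one, had 43.6, 37.05 and 31.3 CPM with both cytokines, 41.7, 59.1 and 52.4 CPM with IL-22, 63.8, 85.4 and 73.3 CPM with IL-1b and 72.9, 74.2 and 83.8 CPM in unstimulated libraries. Libraries with IL-22 were all below those without. The log2 fold change was -1.04 ± 0.14 with both cytokines (2.06-fold lower, edgeR adjusted p = 0.000115) and -0.59 ± 0.14 with IL-22 (1.51-fold lower, edgeR adjusted p = 0.00654). St6galnac2, which acts on core 1 and on the GalNAc at the root of the chain, had 34.7, 39.01 and 26.2 CPM with both cytokines, 45.8, 39.6 and 33.95 CPM with IL-22, 40.1, 47.6 and 49.9 CPM with IL-1b and 62.9, 53.5 and 50.1 CPM in unstimulated libraries. All 9 cytokine-treated libraries were below all 3 unstimulated ones, and the IL-1b libraries overlapped those with IL-22. It fell with both cytokines (-0.73 ± 0.15, edgeR adjusted p = 0.0021) and with IL-22 (-0.48 ± 0.14, edgeR adjusted p = 0.0271). The IL-22 call of St6galnac2 ended when unstimulated replicate 1 or 2, or replicate 2 or 3 of IL-22, was left out (edgeR adjusted p = 0.0568 to 0.111). It also ended after subtracting the trend on counts per exon base (-0.42, edgeR adjusted p = 0.0547). With IL-1b alone its log2 fold change was -0.27 ± 0.14 (edgeR adjusted p = 0.543).

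St6galnac6, known for sialylation of glycolipids and of type 1 chains, did not share this direction. It had 302, 294 and 310.2 CPM with both cytokines, 298, 326 and 304 CPM with IL-22, 295, 297 and 273 CPM with IL-1b and 266, 279.7 and 282 CPM in unstimulated libraries. Over the 12 libraries the variance of its raw counts was 2.99 times the mean, where the library totals alone would give 7.13. The part of this in its direction and in the shares below was not tested. Its small rise with IL-22 (0.16 ± 0.052, edgeR adjusted p = 0.037) was lost with total counts as the only scaling (adjusted p = 0.122), after subtracting the trend on counts per exon base (0.438) and without any of 5 single libraries (0.0507 to 0.124), and with both cytokines it was 0.13 ± 0.052 (adjusted p = 0.0766). In GENCODE M21 on build mm10 it lies on the plus strand at chr2:32599709-32620806, next to St6galnac4 at chr2:32587095-32599698, while St6galnac2 lies at chr11:116675303-116694868 on the minus strand and St6gal1 at chr16:23224740-23360350 on the plus strand. St6galnac6 was also the most abundant of the 4 per kb. The sum of the 4 was 76.7 ± 0.848 CPM per kb with both cytokines, 83.5 ± 3.67 with IL-22, 86.5 ± 4.02 with IL-1b and 87.1 ± 2.03 in unstimulated libraries, lowest with both cytokines. The part of it made up by St6galnac6 was 79.6% to 85% with both cytokines, 76.4% to 77.3% with IL-22, 67.6% to 72.3% with IL-1b and 65.2% to 66.1% in unstimulated libraries, ranges that did not overlap. St6galnac1, whose product in goblet cells is sialyl-Tn, was nearly absent, with counts of 0, 0 and 1 with both cytokines, 2, 0 and 0 with IL-22, 3, 3 and 2 with IL-1b and 2, 3 and 1 in unstimulated libraries, where 3 counts stand for 0.499 to 0.664 CPM in a single library.

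**Figure D4:**
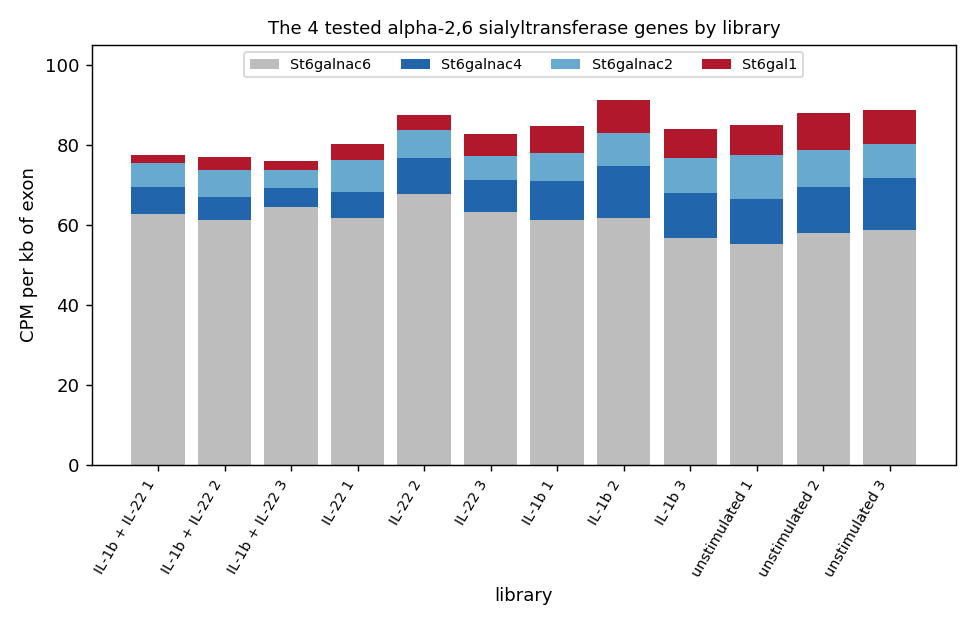
Stacked levels of the 4 tested alpha-2,6 sialyltransferase genes in each library, in CPM per kb of exon. St6galnac6 (grey) fills 79.6% to 85% of the bar with both cytokines and 65.2% to 66.1% in unstimulated libraries, where the bands of St6gal1, St6galnac2 and St6galnac4 are wider.

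Of the 6 tested alpha-2,3 sialyltransferases 1 fell with both cytokines, and 1 rose and 1 fell with IL-22. St3gal1, which caps core 1, averaged 81.5 ± 25.4 CPM with both cytokines, 54.7 ± 13.6 CPM with IL-22, 77.6 ± 9.89 CPM with IL-1b and 73.7 ± 24.8 CPM in unstimulated libraries, with overlapping groups. For St3gal3 and St3gal6, which cap lactosamine, the log2 fold changes with both cytokines were -0.079 ± 0.11 and 0.022 ± 0.093, with 95% intervals of -0.30 to 0.14 and -0.16 to 0.20. St3gal2, another enzyme of core 1 caps, was low, with 12, 11 and 16 counts with both cytokines, 11, 6 and 6 with IL-22, 10, 13 and 10 with IL-1b and 9, 9 and 3 in unstimulated libraries. Its libraries with both cytokines lay above the unstimulated ones, with a log2 fold change of 1.04 ± 0.40 that did not pass (unadjusted p = 0.0197, edgeR adjusted p = 0.0652). St3gal4 was called upward with IL-22 alone (0.17 ± 0.056, edgeR adjusted p = 0.0397), yet its raw counts hardly moved. They were 1778, 1753 and 1664 with both cytokines, 1741, 1793 and 1826 with IL-22, 1773, 1728 and 1845 with IL-1b and 1771, 1776 and 1783 in unstimulated libraries, and over the 12 libraries their variance was 1.22 times the mean, where the library totals alone would give 8.11. After subtracting the trend on counts per exon base the log2 fold change was 0.041 and not called (edgeR adjusted p = 0.669). St3gal4 shares 14.1% of its exon bases with 4930581F22Rik on the opposite strand. The family summed to 202 ± 5.6 CPM per kb with both cytokines, 205 ± 11.1 with IL-22, 201 ± 6.52 with IL-1b and 196 ± 7.81 in unstimulated libraries.

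St3gal5 stood apart from its family. It makes GM3, the first ganglioside of the series, and had 3, 4 and 3 counts with both cytokines, 13, 7 and 4 with IL-22, 22, 20 and 15 with IL-1b and 67, 60 and 11 in unstimulated libraries. By CPM, unstimulated replicate 3 was far below its 2 companions and within the range of the IL-22 libraries, so only the libraries with both cytokines lay wholly below the unstimulated ones. The log2 fold change was -3.58 ± 0.64 with both cytokines (95% interval -4.84 to -2.31, edgeR adjusted p = 0.00104) and -2.33 ± 0.55 with IL-22 (95% interval -3.40 to -1.26, edgeR adjusted p = 0.00731). Without unstimulated replicate 3 these were -4.03 and -2.78, and the log2 fold change with IL-1b went to -1.74 with a call (edgeR adjusted p = 0.0318) where all libraries gave -1.29 ± 0.47 and none (adjusted p = 0.439). The fall with both cytokines against IL-1b alone (-2.29 ± 0.73, edgeR adjusted p = 0.0326) was lost without IL-1b replicate 1 or 2 or any 1 library of both cytokines (adjusted p = 0.07 to 0.0839).

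St8sia1, the GD3 synthase that acts on GM3, changed in the opposite direction to St3gal5. It had 15.7, 17.8 and 13.3 CPM with both cytokines, 10.9, 11.3 and 11.9 CPM with IL-22, 10.3, 8.65 and 8.81 CPM with IL-1b and 7.48, 8.73 and 6.64 CPM in unstimulated libraries. Levels were ordered without overlap from both cytokines to IL-22 and on to the 2 groups without IL-22. The log2 fold change was 1.03 ± 0.16 with both cytokines (2.05-fold, edgeR adjusted p = 0.000373) and 0.58 ± 0.17 with IL-22 (1.49-fold, edgeR adjusted p = 0.0247). The IL-22 call was lost with DESeq2 (adjusted p = 0.0783), in a fit of only the 6 libraries compared (0.0568) and when unstimulated replicate 1 or 3, or replicate 2 or 3 of IL-22, was left out (0.0565 to 0.0802). Between both cytokines and IL-22 alone the log2 fold change of 0.46 ± 0.16 did not pass (unadjusted p = 0.0112, edgeR adjusted p = 0.326). St8sia5, another ganglioside sialyltransferase gene, averaged 71.2 ± 11.7 CPM with both cytokines, 84.6 ± 21.1 CPM with IL-22, 56.6 ± 14.8 CPM with IL-1b and 55.5 ± 14.2 CPM in unstimulated libraries and was not called (edgeR adjusted p = 0.242 and 0.0596 for the first 2 against the last).

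**Figure D5:**
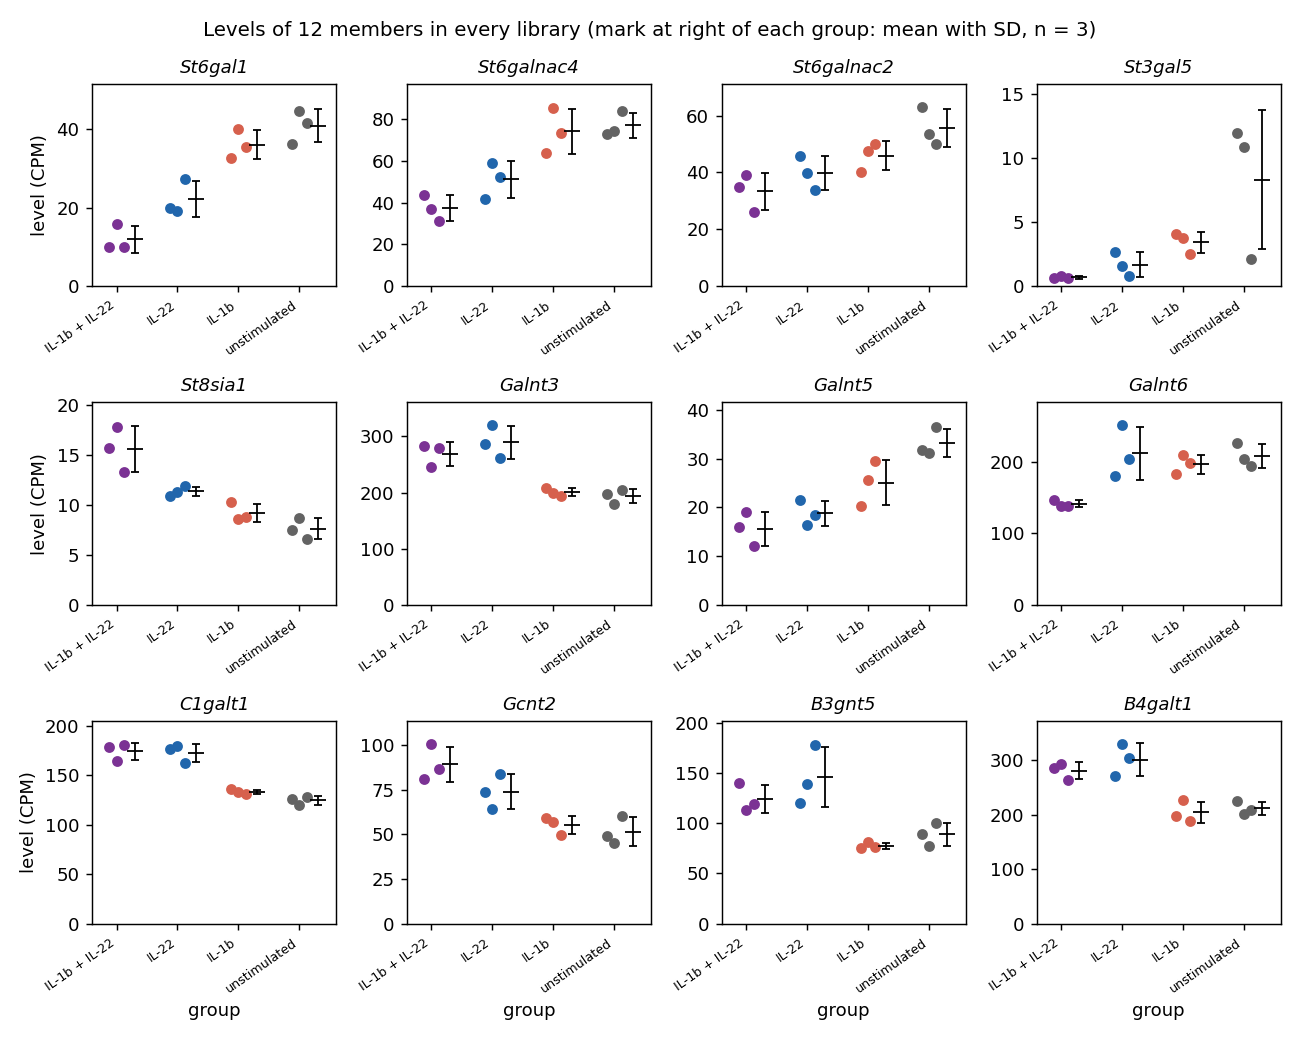
Level in CPM of 12 members in every library, with the group mean and SD at the right of each group (n = 3). St6gal1, St6galnac4 and Galnt5 are lowest with both cytokines, St8sia1 and Gcnt2 are highest there, Galnt6 is low only with both, and for St3gal5 1 unstimulated library lies at 2.09 CPM beside 11.9 and 10.9 CPM.

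Some of the genes that were too low to test had their counts in a single library. B4galt2 had 24 counts in IL-1b replicate 1 and 0 to 3 in each of the other 11, St8sia4, a polysialic acid synthase, had 9 counts there and 0 to 2 elsewhere, and St8sia6 had 8 there and 0 to 3 elsewhere. That library also held the leukocyte counts given above, and the part of those cells in these values was not tested. B4galt2 shares 28.2% of its exon bases with Ccdc24 on the same strand.

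Genes around the transferases are set beside the shares called over all tested genes. Those were 27% with both cytokines (13.7% upward and 13.3% downward) and 22.5% with IL-22 (11.9% upward and 10.6% downward). The lists are small, and whether any differs from those shares was not tested. Among 15 tested genes that supply UDP-GalNAc, UDP-GlcNAc and UDP-galactose, 5 rose with both cytokines and 3 with IL-22 and none fell, led by the transporter gene Slc35d2 (25 ± 2.47 CPM with both cytokines, 22.8 ± 2.75 with IL-22, 16.9 ± 3.37 with IL-1b and 14.6 ± 1.36 in unstimulated libraries). The other 4 rose by 0.20 to 0.27 on the log2 scale. Among 6 tested genes of sialic acid supply none changed with both cytokines, and Cmas, which activates sialic acid as its CMP form, rose with IL-22 (0.20 ± 0.057, edgeR adjusted p = 0.0242), a call lost with total counts as the only scaling (adjusted p = 0.0894) after subtracting the trend (0.171), in a fit of only the 6 libraries compared (0.0679) and without unstimulated or IL-22 replicate 1 or 2 (0.0601 to 0.0949). Of 4 tested genes of sialic acid removal and modification 2 fell with both cytokines and 1 with IL-22. Siae, an esterase that takes acetyl groups off sialic acid, averaged 32.1 ± 2.97 CPM with both cytokines, 35.1 ± 1.88 with IL-22, 70.6 ± 1.86 with IL-1b and 66.5 ± 4.15 in unstimulated libraries, and its log2 fold change was -1.05 ± 0.083 with both and -0.92 ± 0.082 with IL-22 (edgeR adjusted p = 1.22e-06 and 4.76e-06). Neu3, a sialidase of gangliosides, averaged 51.9 ± 12.7 CPM with both cytokines, 96.3 ± 30.1 with IL-22, 109 ± 22.2 with IL-1b and 133 ± 1.67 in unstimulated libraries, and fell with both cytokines (-1.36 ± 0.20, edgeR adjusted p = 0.000254). Of 4 tested glycan sulfotransferases 1 rose and 2 fell in each of those comparisons. Chst4, which sulfates N-acetylglucosamine, had 112 ± 0.631 CPM with both cytokines, 112 ± 2.91 with IL-22, 39.2 ± 5.84 with IL-1b and 46.1 ± 3.78 in unstimulated libraries (log2 fold change 1.28 ± 0.087 and 1.29 ± 0.087, edgeR adjusted p = 2.9e-07 and 4.15e-07), while Gal3st1 and Gal3st2, which sulfate galactose, fell by 0.44 and 0.98 with both cytokines and by 0.67 and 0.60 with IL-22. Leaving out IL-22 replicate 1 or 2 ended the call of Gal3st2 with IL-22 (edgeR adjusted p = 0.0551 and 0.0673).

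The mucin proteins that carry such glycans gave 3 of 7 tested genes upward and none downward, both with both cytokines and with IL-22 against unstimulated, and none changed with IL-1b alone. For this and the lists below, the shares over all tested genes were 27% with both cytokines (13.7% upward and 13.3% downward) and 22.5% with IL-22 (11.9% upward and 10.6% downward). Whether any of these lists differs from those shares was not tested. Muc1 had 28.6 ± 3.65 CPM with both cytokines and 5.92 ± 1.41 CPM in unstimulated libraries, and Muc13 576 ± 20 and 458 ± 22.1 CPM. Muc2, the secreted mucin of goblet cells, averaged 397 ± 18.8 CPM with both cytokines, 418 ± 41.2 CPM with IL-22, 370 ± 35.3 CPM with IL-1b and 425 ± 17.6 CPM in unstimulated libraries and was not called (edgeR adjusted p = 0.366 and 0.863). Among 22 Golgi structure and transport genes listed for comparison, 4 rose and 2 fell with both cytokines and 5 rose and 1 fell with IL-22. Among 14 goblet cell markers 1 rose (Retnlb) and 4 fell with both cytokines (Ano7, Capn9, Ern2 and Atoh1), and with IL-22 these and Spdef fell. Ern2, the goblet cell stress sensor, averaged 34.6 ± 5.4 CPM with both cytokines, 42.6 ± 4.92 CPM with IL-22, 61.5 ± 8.81 CPM with IL-1b and 70.3 ± 3.67 CPM in unstimulated libraries. The summed goblet list was 2190 to 2330 CPM with both cytokines, 2180 to 2540 CPM with IL-22, 2120 to 2390 CPM with IL-1b and 2410 to 2440 CPM in unstimulated libraries. Of 6 tested stem cell markers 3 fell with both cytokines (Smoc2, Axin2 and Sox9), and with IL-22 2 fell (Ascl2 and Sox9) and 1 rose (Ephb3). The stem cell list summed to 87.4 to 102 CPM with both cytokines, 118 to 155 CPM with IL-22, 85.5 to 102 CPM with IL-1b and 85.7 to 128 CPM in unstimulated libraries. Of 8 endothelial and nerve markers 3 were tested, and all 3 (Pecam1, Vwf and Uchl1) fell with both cytokines and 1 (Pecam1) with IL-22. Their list summed to 6.87 to 9.8 CPM with both cytokines, 7.43 to 11.5 CPM with IL-22, 15.4 to 17.6 CPM with IL-1b and 17.3 to 21.3 CPM in unstimulated libraries, with no count of Cdh5 or Kdr with both cytokines or in unstimulated libraries. The part of these lists in the falls of St6gal1, St6galnac2, St6galnac4 and Galnt5 was not tested.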

How the data were processed

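Polyadenylated RNA from 12 colonoid libraries (TruSeq Stranded kit, per the labels' protocols) was read from the raw counts that the authors deposited, 1 row per symbol. Per the submitters' processing notes the build was mm10. Aligner, counter, annotation and counting strand were not given in the sources used here, so genes whose exons overlap others are uncertain: of the 29 called members, 14 share exon bases with another gene and 7 share 10% or more. The deposited counts carry no normalization.

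R 4.3.3 and edgeR 4.0.16 were used. The filterByExpr filter kept 13987 of 35869 symbols. Libraries were scaled by TMM (factors 0.957 to 1.039), and edgeR's quasi-likelihood model took all 12 libraries at once, with a mean for each group and 8 residual degrees of freedom. The 6 contrasts were each treatment against unstimulated, both cytokines against each alone, and the interaction, with Benjamini-Hochberg adjustment over all genes tested and a threshold of 0.05. Each standard error was obtained as the size of the log2 fold change divided by the root of its F statistic, and 95% intervals use the normal quantile, so both are approximate. The code was tested on simulated counts.

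Exon lengths and positions are from GENCODE M21 on mm10; 26762 symbols matched directly, 547 through a RefSeq synonym and 8560 not at all. Promoter windows are from RefSeq (GRCm38.p6). Every member could be named, and full values were given for the 25 called members with the largest change in any comparison and for 4 more that were called. The members, gene lists and tests were chosen with earlier results of these data known. Same-numbered replicates were not treated as pairs, since the correlations of their deviations lay between -0.192 and 0.191 and 2 libraries correlated best with their own number. Alternatives were other scalings, DESeq2 1.42.0, other filters, a replicate block, fits of only the 6 libraries compared, subtracting the lowess trend (span 0.3) of fold change on counts per exon base, and leaving out each library.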

Additional observations from a re-analysis of the deposited data

How the results depend on the processing

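The counts of members called stayed within 1.5 times for both cytokines against unstimulated (18 to 27), IL-22 against unstimulated (15 to 24) and both cytokines against IL-1b (18 to 26) in every alternative run. Where few or no members were called, the counts moved. For IL-1b against unstimulated 2 members were called with no filter beyond 1 count, and 0 to 1 with a library left out. For both cytokines against IL-22, 1 was called with total counts only, 2 with DESeq2, 6 with no filter, and 0 to 1 with a library left out. For the interaction 2 were called with no filter. Over all genes, IL-1b gave 32 with DESeq2, 212 with no filter and 8 to 25 with a library left out (25 without unstimulated replicate 3); both against IL-22 gave 87, 336 and 3 to 71 (71 without IL-22 replicate 1, 27 without replicate 1 of both cytokines, 3 without its replicate 3, 4 to 6 without unstimulated replicate 1 or 2, IL-22 replicate 2 or 3, IL-1b replicate 2 or replicate 2 of both), 7 with a replicate block and 6 with only the 6 libraries; and the interaction gave 4, 50 and 0 to 1 (1 without IL-1b replicate 1). IL-22 against unstimulated ranged from 1977 to 3343 genes, the lowest without unstimulated replicate 2. With total counts only, 1206 of 3197 genes called with IL-22 were higher (1661 of 3144 with TMM), and 1495 of 3757 with both (1920 of 3783 with TMM), while members split 12 to 5 and 14 to 9. Median log2 fold changes with IL-22 ran from -0.17 in genes under 0.02 counts per exon base to 0.13 at 0.4 or more, a range that holds 4 members. The replicate block, whose numbers do not pair the libraries, left 3456, 2819 and 3345 genes and 22, 18 and 24 members in the 3 large comparisons, and ended the calls of Gcnt1 (0.42, edgeR adjusted p = 0.0583), St3gal4 (0.17, 0.0583) and St6galnac6 (0.16, 0.0526). The 93 pairs of a gene and a comparison that were followed include some not called in the main fit, which had no call to lose. Of the 93, 22 lost a call somewhere and 63 had the same outcome in every run. The rest gained a call somewhere, and none changed sign. The causes were not tested. Depth limits the low genes: 3 counts in a library stand for 0.499 to 0.664 CPM, and a member with fewer could change without being detectable.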
